A study of Homo sapiens with 2 samples.

Results

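The 66 genes described here were present in the WT-labelled library and at least 8-fold lower in the DR-labelled library, and they were selected on these measured levels. A level is given as CPM, the estimated reads of a gene per 1000000 estimated reads of its library. A gene was taken when its level in the WT-labelled library was at least 5 CPM and at least 8 times the level in the DR-labelled library after 0.1 CPM had been added to the latter. Of 18267 genes with counts, 79 passed these limits. Of these, 13 were left out by name, namely FGFR3, RELN, VIM, MOB1B and members of the MAGE, CTAG and PAGE families of cancer-testis antigens. The remaining 66 genes are the subject.

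The data are 1 RNA-seq library per group of total RNA. Both are labelled as A375, an established human melanoma cell line, with skin as the tissue and DMEM with 10% FBS as the medium, whereas the study's methods name another medium. The DR-labelled library stands for cells that outlived a months-long exposure to rising doses of dacarbazine (DTIC), an alkylating drug used against melanoma, and the WT-labelled library for the wild-type control, as the study describes them. The labels give the same treatment, DITC for 105 days, for both libraries, the WT-labelled library included. Each column of counts was assigned by the sample description. The column names differ by 1 punctuation mark, neither of them says wild type, and each is close to the title given to the DR sample, so each direction below rests on those descriptions. With 1 library per group there is no replicate error and no test. The intervals are exact 95% intervals of the reads, which carry no molecular identifiers, and they cover counting error only. Fewer cells that express a gene and less RNA per cell cannot be told apart in such libraries.

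The labelled cell type went against the marker genes in both libraries. All 10 plasma cell markers of the list used were at 5 CPM or more, and their summed level was 5254 CPM in the DR-labelled library and 6179 CPM in the WT-labelled library. JCHAIN, which encodes the joining chain of secreted antibodies, alone was at 2037 and 2881 CPM. Of 10 melanocyte markers, 8 had counts and 2 reached 5 CPM in the WT-labelled library. Their summed level was 49.0 and 47.6 CPM, of which MITF, the melanocyte lineage factor that other cells also express, made up 35.0 and 34.3 CPM. SOX10, a defining factor of melanocytes, had 3 reads in the DR-labelled library and 0 in the WT-labelled library, and TYRP1, a pigment enzyme, had 0 and 17 reads. The summed levels of the T or NK cell, myeloid, fibroblast, keratinocyte, endothelial, erythroid and neuron lists lay between 7.17 and 25.0 CPM in the DR-labelled library and between 3.15 and 27.0 CPM in the WT-labelled library. The part of cell identity in the differences below was not tested.

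As background, most of the 66 genes belong to families of related proteins that arose by gene duplication, in which members share a biochemical role but are used in different tissues. Examples are the FOS proteins, which pair with JUN proteins to form the transcription factor AP-1, the catalytic and regulatory subunits of the energy sensor AMPK, and the pore-forming subunits of sodium channels. Cell lines commonly hold 1 or a few members of such a family at a high level and the rest near 0.

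The limits used chose genes over a wide range of levels. The share of genes at 5 CPM or more in the WT-labelled library that passed, the 13 genes left out included, was 0.728%, 79 of 10858 genes. In the opposite direction, 125 of 11137 genes at 5 CPM or more in the DR-labelled library passed the same limits, a share of 1.12%. Since the rule used this contrast, nothing is read from these shares. Among the 66 genes, 50 were at 10 CPM or more in the WT-labelled library, 54 were under 5 CPM in the DR-labelled library, 32 were under 1 CPM there and 7 had 5 reads or fewer there. The median level was 23.2 CPM in the WT-labelled library and 1.09 CPM in the DR-labelled library, and the median ratio was 18.6. The description as nearly absent thus holds best for the 32 genes under 1 CPM, whereas 12 genes, at 5 CPM or more in the DR-labelled library, were lower there but not absent.

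**Figure D1:**
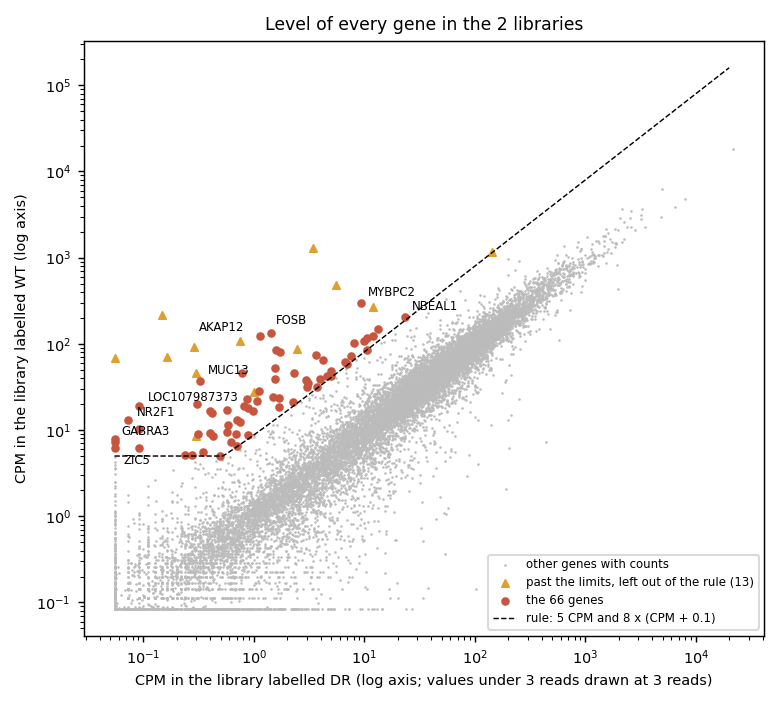
Level of every gene with counts, in CPM on log axes, in the DR-labelled library (x axis) and in the WT-labelled library (y axis), with the 66 genes as circles, the 13 genes left out as triangles and the limits as a dashed line. The 66 genes reach from 5.02 CPM (PRKAG3) to 294.7 CPM (MYBPC2) in the WT-labelled library, and values under 3 reads are drawn at 3 reads.

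The DR-labelled library was the deeper of the pair, with 54878355 estimated reads against 35294670. A count of 3 reads was worth 0.0547 CPM in the DR-labelled library and 0.0850 CPM in the WT-labelled library. The lowest lower limit of the 66 ratio intervals was 6.48, for PRDM11, a member of the PRDM family of chromatin factors, which had 38.5 reads in the DR-labelled library and 229.4 in the WT-labelled library. The genes just inside the ratio limit included MYBL1, PRDM11, OTUB2 and EPHB2, at 8.08, 9.26, 8.29 and 8.41 times the level in the DR-labelled library. The genes just outside it were STEAP1, ITGA2, SOX4, ANO4 and DOK3, with plain ratios of 8.76, 8.03, 7.82, 8.31 and 7.56. STEAP1, ITGA2 and ANO4 had plain ratios above 8 but fell short once 0.1 CPM was added to the level in the DR-labelled library. TMEM47, with 1 read in the DR-labelled library, ADGRD1, with 2 reads, and PAX9, with 16 reads, passed the ratio but lay under 5 CPM in the WT-labelled library, at 4.87, 4.31 and 4.22 CPM.

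The genes were put into 8 classes by the role of their products, after their values had been seen. There were 17 receptors and signalling proteins, 12 transcription factors, 9 proteins of cell adhesion and matrix, 8 enzymes and proteins of protein turnover, 5 transporters and channels, 3 proteins of the cytoskeleton and muscle, 2 germline proteins and 10 genes of other or unknown role. The median ratio of each class lay between 11.8, for cell adhesion and matrix, and 66.6, for the 2 germline genes. By the Gene Ontology terms in the deposited table, 18 of 57 genes with a term for a cellular component were placed at the plasma membrane, 31.6% against 18.3% of all genes at 5 CPM or more in the WT-labelled library. For an extracellular place the numbers were 10 of 57 genes and 17.5% against 6.42%. For the nucleus they were 19 of 57 and 33.3% against 36.9%, and for the cytoskeleton 1 of 57 and 1.75% against 4.10%. Shares for the membrane and the extracellular space were thus above those of all genes at this level, and shares for the nucleus and cytoskeleton were not. No test of these shares was made.

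**Figure D2:**
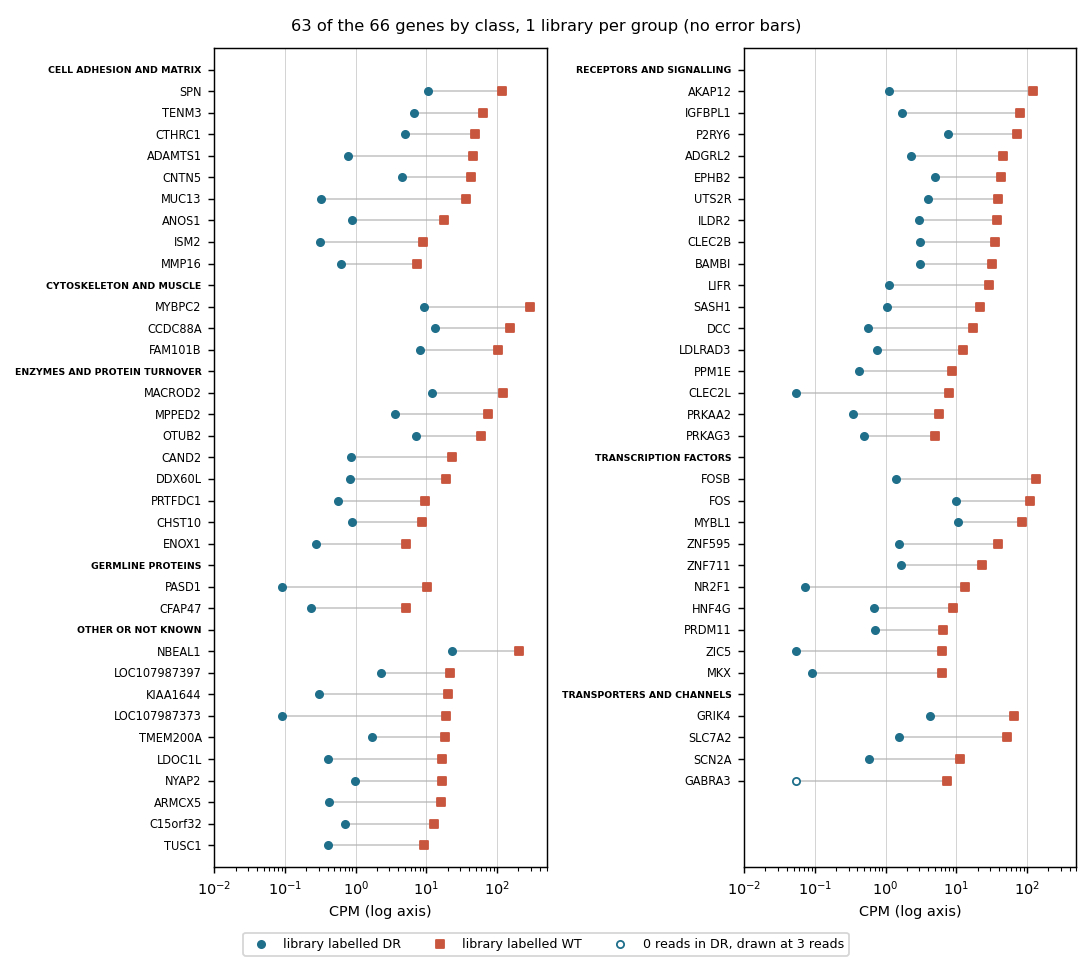
Level of 63 of the 66 genes in CPM (log axis), with a circle for the DR-labelled library and a square for the WT-labelled library, grouped by class and ordered by the level in the WT-labelled library. Only GABRA3, drawn with an open circle at 3 reads, had 0 reads in the DR-labelled library; ZIC5, with 1 read, is also drawn at 3 reads, and there are no error bars because each group is 1 library.

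MYBPC2, the fast skeletal muscle form of myosin-binding protein C, a protein of the thick filament of the sarcomere, had the most reads of the 66 genes in the WT-labelled library. It had 10403 reads there (294.7 CPM, 289.1 to 300.5) and 509 reads in the DR-labelled library (9.28 CPM, 8.49 to 10.1), a 31.8-fold higher level in the WT-labelled library (29.1 to 34.8). Scaled by gene length to TPM, a length-corrected share of the library by which genes can be compared, it was also the highest of the 66 in the WT-labelled library, at 187.5 TPM. In the DR-labelled library it was at 5.69 TPM. Its relatives were under 5 CPM in both libraries. MYBPC1, the slow skeletal form, had 2 reads in the DR-labelled library and 0 in the WT-labelled library. MYBPC3, the cardiac form, had 0 and 3 reads. MYBPH, a related protein of the same filament, had 252 and 101 reads, 0.623 of the level in the DR-labelled library (0.490 to 0.788).

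Other muscle genes did not pass the limits with MYBPC2. Of the 44 genes of the list, 40 had counts, 7 were at 5 CPM or more in the WT-labelled library, and MYBPC2 alone of them passed the 8-fold limit. Over all genes at that level 0.728% passed, so with so few list genes nothing is read from this count. The median log2 difference of the list was -0.24, beside -0.05 over all genes with counts, and 27 of its genes were under 1 CPM in both libraries. Fast fibre genes of the list were at the low end. MYLPF, the fast myosin regulatory light chain, had 11 and 4 reads, and TNNT3, the fast troponin T, had 5 and 2 reads in the DR- and WT-labelled libraries. The other 6 genes of the list at 5 CPM or more in the WT-labelled library were within 2-fold. TTN, which encodes the giant sarcomere protein titin, was at 54.6 and 43.4 CPM, and MYOM2, an M-band protein, was at 105.7 and 112.7 CPM. MB, which encodes myoglobin, was 7.26-fold higher in the WT-labelled library (4.76 to 11.4) on 27 and 126 reads and lay under 5 CPM in both. Some other genes at such low levels lay on the opposite side. CKM, MYL1, TPM2 and TNNI2 were at 0.176, 0.177, 0.201 and 0.212 of the level in the DR-labelled library, with upper limits between 0.384 and 0.706.

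The other 2 genes of this class encode regulators of actin structures. CCDC88A, which encodes Girdin, an actin-binding protein of migrating cells, was at 13.2 CPM in the DR-labelled library and 149.8 CPM in the WT-labelled library, an 11.4-fold difference (10.5 to 12.3). Its relatives stayed within 2-fold. CCDC88B was at 137.2 and 81.0 CPM and CCDC88C at 109.9 and 91.6 CPM. FAM101B, a refilin that binds the actin crosslinker filamin, was at 8.001 and 102.0 CPM, a 12.7-fold difference (11.5 to 14.1), while the other refilin, FAM101A, had 25 reads and 1 read.

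Among the transcription factors, both FOS and FOSB were lower in the DR-labelled library. They are immediate early genes, transcribed within minutes of a growth factor or stress signal, and their products dimerise with JUN proteins as AP-1. FOSB had 78 reads (1.42 CPM) in the DR-labelled library and 4679 reads (132.6 CPM) in the WT-labelled library, a 93.3-fold difference (74.6 to 118.2). FOS had 548 reads (9.99 CPM) and 3846 reads (109.0 CPM), a 10.9-fold difference (9.98 to 12.0). The interval of the FOS ratio lay wholly below that of FOSB. The remaining AP-1 genes of the families listed were within 2-fold in either direction. FOSL1 was at 5.30 and 4.73 CPM, FOSL2 at 15.6 and 12.2 CPM and JUNB at 64.8 and 46.3 CPM in the DR- and WT-labelled libraries. JUN was at 91.5 and 136.8 CPM and JUND at 100.5 and 173.5 CPM. Other early response genes, chosen after their values were seen, did not share one direction. EGR1 had 149 reads in the DR-labelled library and 31 in the WT-labelled library, and DUSP1, a phosphatase gene of the same response, was at 24.4 and 69.4 CPM.

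The promoters of FOS and FOSB are shown because, of the 4 matched promoters of the 66 genes with a TATAAA box, 2 belong to this pair. They are windows of 300 bases, from 250 bases before the start of transcription to 50 bases after it, from RefSeq (GRCh38.p14), written 5′ to 3′ along the gene. FOS lies at chr14:75278578-75278877 and FOSB at chr19:45467746-45468045, both on the plus strand. Capitals mark TATAAA, the core of a TATA box, and TGACGT, a part of the palindrome TGACGTCA recognised by factors that respond to cyclic AMP.
FOS: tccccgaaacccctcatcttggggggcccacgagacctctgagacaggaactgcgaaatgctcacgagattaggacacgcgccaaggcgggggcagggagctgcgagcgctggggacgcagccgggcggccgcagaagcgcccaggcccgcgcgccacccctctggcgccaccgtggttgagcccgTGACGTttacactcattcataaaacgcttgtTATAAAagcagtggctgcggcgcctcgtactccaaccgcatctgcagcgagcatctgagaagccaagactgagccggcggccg
FOSB: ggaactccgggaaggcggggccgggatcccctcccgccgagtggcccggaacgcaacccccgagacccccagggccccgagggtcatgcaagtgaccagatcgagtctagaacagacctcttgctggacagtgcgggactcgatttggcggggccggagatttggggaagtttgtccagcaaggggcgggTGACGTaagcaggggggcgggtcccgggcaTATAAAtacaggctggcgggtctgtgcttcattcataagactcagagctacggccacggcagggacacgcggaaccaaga
In both windows a TGACGT lay upstream of a TATAAA. Over both strands, TATAAA was found in 4 of 47 promoters of the genes (8.51%) and in 450 of 8961 promoters of genes at 5 CPM or more in the WT-labelled library (5.02%). TGACGT was found in 7 of 47 (14.9%) and 1089 of 8961 (12.2%), counting those inside TGACGTCA, which was found in 1 of 47 (2.13%) and 309 of 8961 (3.45%). The AP-1 motif TGANTCA was found in 2 of 47 promoters (4.26%) and 364 of 8961 (4.06%). TGCTGAC, a motif bound by MAF proteins, was found in 5 of 47 (10.6%) and 288 of 8961 (3.21%). The 5 were LIFR, SCN2A, NYAP2, CAND2 and ZNF711. This was the largest gap among the motifs searched, no test of it was made, and nothing is read from so few promoters. All motif counts are matches of letters and not measured binding.

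MYBL1, which encodes the germ cell and B cell factor A-MYB, lay nearest to the ratio limit, at 10.5 CPM in the DR-labelled library and 85.1 CPM in the WT-labelled library, an 8.08-fold difference (7.39 to 8.85). The other MYB genes differed little. MYB was at 41.9 and 52.6 CPM and MYBL2, a cell cycle factor, at 404.5 and 523.7 CPM. HNF4G, a nuclear receptor of the gut, had 38 and 315 reads, and its relative HNF4A had 3 reads in each library. ZNF595, a zinc finger gene, was at 1.54 and 38.8 CPM, a 25.1-fold difference (20.1 to 31.5), but its reads were partly fractional. The sum with its neighbour and near relative ZNF718 differed 3.07-fold (2.85 to 3.32), so the size for ZNF595 alone is uncertain. ZNF711, an X-linked zinc finger gene, was at 1.68 and 23.4 CPM.

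The lowest counts in the DR-labelled library belonged to genes that had only moderate levels in the WT-labelled library. GABRA3, a subunit of the GABA-A receptor, had 0 reads in the DR-labelled library and 258 reads (7.31 CPM) in the WT-labelled library, which is at least 133.7-fold higher when 3 reads are set for the DR-labelled library. The exact lower 95% limit of its ratio was 108. ZIC5, a zinc finger factor of the neural plate, had 1 and 221 reads, a ratio of 344 with a counting interval from 61.0 to 13633. CLEC2L, a C-type lectin-like membrane protein, had 3 and 279 reads, a ratio of 145 (49.0 to 705). These intervals are wide because they rest on 3 reads or fewer. NR2F1, the orphan nuclear receptor COUP-TFI of neural development, had 4 and 462 reads, a ratio of 180 (69.7 to 662). PASD1, a cancer-testis antigen outside the families left out, had 5 and 359 reads, a ratio of 112 (47.4 to 346). MKX, the homeodomain factor Mohawk of tendon cells, had 5 and 220 reads, a ratio of 68.4 (28.9 to 212.8). ZIC5, NR2F1, PASD1 and MKX were named for these counts after their values were seen.

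In the ZIC and COUP-TF families another member was also lower in the DR-labelled library, at a smaller size. ZIC2 was at 2.95 and 19.2 CPM, 6.52-fold higher in the WT-labelled library (5.48 to 7.78), and NR2F2 was at 2.22 and 9.44 CPM, 4.24-fold higher (3.44 to 5.27). NR2F6 differed little, at 21.2 and 28.6 CPM. CLEC2B, a lectin gene of the same group whose product is a ligand of a natural killer cell receptor, was among the 66 genes at 3.06 and 35.4 CPM, and CLEC2D, which missed the ratio limit, was at 11.6 and 21.5 CPM. The other GABA-A alpha subunit genes were under 2 CPM in both libraries.

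The promoters of the genes with 5 reads or fewer in the DR-labelled library that could be matched are shown because CpG-rich and CpG-poor promoters are regulated in different ways. The windows, the source and the build are those given for FOS, and capitals mark each CpG. PASD1 lies at chrX:151563425-151563724, NR2F1 at chr5:93582972-93583271 and CLEC2L at chr7:139523435-139523734, all on the plus strand. ZIC5 lies at chr13:99971860-99972159 and MKX at chr10:27745770-27746069, both on the minus strand.
PASD1: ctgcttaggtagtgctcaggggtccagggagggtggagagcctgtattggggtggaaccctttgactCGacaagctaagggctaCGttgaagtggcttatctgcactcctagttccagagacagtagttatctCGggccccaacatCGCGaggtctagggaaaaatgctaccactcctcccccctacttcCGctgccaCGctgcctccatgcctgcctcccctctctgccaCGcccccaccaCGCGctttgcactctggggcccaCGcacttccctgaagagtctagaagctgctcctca
NR2F1: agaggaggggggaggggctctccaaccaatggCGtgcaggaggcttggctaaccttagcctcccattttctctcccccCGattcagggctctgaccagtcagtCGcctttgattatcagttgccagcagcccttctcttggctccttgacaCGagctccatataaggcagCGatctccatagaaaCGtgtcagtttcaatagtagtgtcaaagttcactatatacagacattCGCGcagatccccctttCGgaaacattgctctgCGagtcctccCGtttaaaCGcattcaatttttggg
CLEC2L: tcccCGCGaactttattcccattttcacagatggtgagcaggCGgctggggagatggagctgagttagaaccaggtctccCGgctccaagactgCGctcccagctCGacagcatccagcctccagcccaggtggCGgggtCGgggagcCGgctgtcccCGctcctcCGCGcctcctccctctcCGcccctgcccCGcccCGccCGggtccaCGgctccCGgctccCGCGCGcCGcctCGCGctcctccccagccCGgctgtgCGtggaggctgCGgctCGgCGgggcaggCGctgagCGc
ZIC5: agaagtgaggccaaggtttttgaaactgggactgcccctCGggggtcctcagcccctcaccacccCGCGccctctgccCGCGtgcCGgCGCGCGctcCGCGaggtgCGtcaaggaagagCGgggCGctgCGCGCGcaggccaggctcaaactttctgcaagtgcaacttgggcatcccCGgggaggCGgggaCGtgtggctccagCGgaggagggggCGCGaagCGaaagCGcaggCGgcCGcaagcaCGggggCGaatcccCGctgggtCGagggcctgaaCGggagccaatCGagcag
MKX: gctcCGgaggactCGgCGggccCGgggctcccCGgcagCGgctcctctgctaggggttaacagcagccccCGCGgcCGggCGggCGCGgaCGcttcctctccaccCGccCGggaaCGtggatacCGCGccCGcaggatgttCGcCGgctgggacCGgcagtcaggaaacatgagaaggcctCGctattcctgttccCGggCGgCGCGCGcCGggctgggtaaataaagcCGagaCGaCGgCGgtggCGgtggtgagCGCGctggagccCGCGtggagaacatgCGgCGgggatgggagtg
The ratio of observed to expected CpG, in which 1 means as many CpG as the C and G content would give, was 0.430 for PASD1 (11 CpG), 0.614 for NR2F1 (12 CpG), 0.789 for CLEC2L (31 CpG), 0.898 for ZIC5 (33 CpG) and 1.03 for MKX (40 CpG). The germline gene PASD1 had the lowest value of these 5 and MKX the highest. Promoters could be matched for 47 of the 66 genes. A ratio of at least 0.6 was found in 36 of the 47 (76.6%) and in 7633 of 8961 promoters of genes at 5 CPM or more in the WT-labelled library (85.2%). The medians were 0.802 and 0.854, and the median GC content was 66% and 65.3%. The lowest values were those of C15orf32 (0), ENOX1 (0.098) and LIFR (0.126), and the highest that of ADGRL2 (1.28). CpG-rich promoters were thus the rule among the 47 genes with a matched promoter, at a share somewhat below that of the matched genes at this level.

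**Figure D3:**
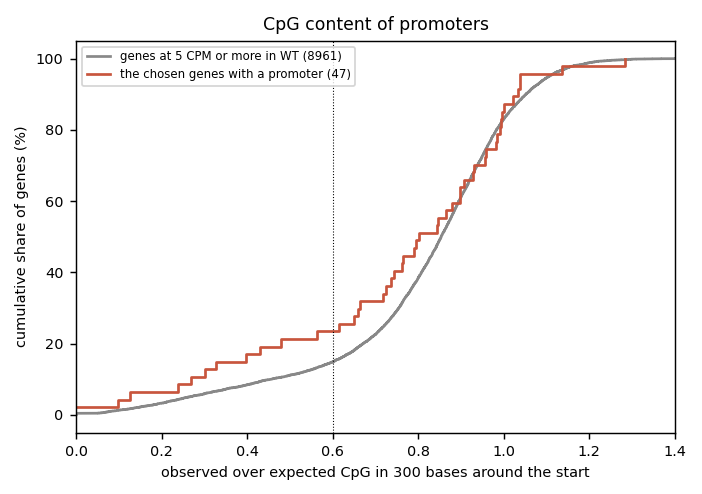
Cumulative share of promoters (y axis, %) by the ratio of observed to expected CpG in 300 bases (x axis), for 47 of the 66 genes and for 8961 genes at 5 CPM or more in the WT-labelled library, with a dotted line at 0.6. The line of the 47 genes lies above the other over most of the axis below 0.9, with 76.6% against 85.2% of promoters at 0.6 or more and 59.6% against 70.8% at 0.75 or more.

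Receptors and signalling proteins formed the largest class, with 17 genes at 5.02 to 122.4 CPM in the WT-labelled library. AKAP12, a scaffold that holds protein kinases A and C at the membrane, had 62.2 reads (1.13 CPM) in the DR-labelled library and 4320 reads (122.4 CPM) in the WT-labelled library. Its 108-fold difference (84.3 to 141.6) was among the largest of the genes with more than 3 reads in the DR-labelled library. The other 15 genes with the stem AKAP included 10 at 5 CPM or more in the WT-labelled library, whose median log2 difference was -0.00197, and none of them passed the 8-fold limit in either direction. The shares that passed over all genes at 5 CPM or more in the higher library were 0.728% and 1.12%, so nothing is read from that count. IGFBPL1, a secreted protein akin to the binding proteins of insulin-like growth factors, was at 1.73 and 80.5 CPM, a 46.7-fold difference (37.9 to 57.7).

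Several of the class were G protein-coupled receptors. P2RY6, a receptor for the nucleotide UDP, was at 7.54 and 72.5 CPM, a 9.62-fold difference (8.66 to 10.7). UTS2R, the receptor of the vasoactive peptide urotensin II, was at 3.99 and 38.8 CPM, a 9.71-fold difference (8.42 to 11.3). ADGRL2, the adhesion receptor latrophilin 2, was at 2.30 and 45.9 CPM, a 19.98-fold difference (16.7 to 24.1). Among the latrophilins, ADGRL1 was at 116.0 and 92.8 CPM and ADGRL3 at 1.87 and 5.95 CPM. Per length, ADGRL1 was the highest latrophilin in both libraries, at 36.8 and 30.5 TPM against 0.934 and 19.4 TPM for ADGRL2. TENM3, a teneurin, is of a family whose members bind latrophilins across cell contacts, and it was itself among the 66 genes, at 6.60 and 62.3 CPM. TENM1, TENM2 and TENM4 were under 4 CPM in both libraries.

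EPHB2, a receptor tyrosine kinase for ephrin-B ligands, was at 5.03 and 42.3 CPM, an 8.41-fold difference (7.39 to 9.60). Its relative EPHB4 differed the other way, at 56.9 and 27.4 CPM, 0.481 of the level in the DR-labelled library (0.447 to 0.518). LIFR, the receptor subunit for leukaemia inhibitory factor, was at 1.11 and 28.6 CPM, a 25.7-fold difference (19.9 to 33.9). IL6ST, the gp130 subunit with which it pairs, was at 259.0 and 258.3 CPM, and the related OSMR at 1.01 and 1.11 CPM. The ratio of IL6ST was 0.997 (0.971 to 1.02), so of the paired subunits LIFR differed and IL6ST was level. DCC, a receptor for the axon guidance factor netrin, had 31 and 599 reads, and its relative NEO1 was at 70.8 and 133.7 CPM. BAMBI, a decoy receptor of the TGF-beta pathway that lacks a kinase domain, was at 3.03 and 31.5 CPM, and ILDR2, an immunoglobulin-like membrane protein, at 2.96 and 38.0 CPM. SASH1, a signalling scaffold, was at 1.06 and 21.6 CPM. Its relative SASH3, an adaptor of lymphocytes named after its values were seen, had 1849 reads in the DR-labelled library and 4 in the WT-labelled library. LDLRAD3, a receptor-like membrane protein, had 41.3 and 441 reads.

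AMPK is the energy-sensing kinase built of an alpha, a beta and a gamma subunit. Of its 7 subunit genes, 2 were among the 66 genes and both lay near the lower level limit. Over all genes at 5 CPM or more in the WT-labelled library, 0.728% passed. The family was picked after the values were seen, so nothing is read from this count. PRKAA2, the alpha-2 catalytic subunit, had 18.9 reads in the DR-labelled library and 198.3 in the WT-labelled library (5.62 CPM). PRKAG3, the gamma-3 subunit used in fast skeletal muscle, had 27 and 177 reads (5.02 CPM in the WT-labelled library). The other 5 subunit genes were at 11.3 to 69.1 CPM in the WT-labelled library and within 2-fold. PRKAA1, the alpha-1 subunit, was at 61.5 and 69.1 CPM, and per length at 31.02 TPM against 1.36 TPM for PRKAA2 in the WT-labelled library. PPM1E, a phosphatase that acts on AMPK among others, had 23.3 and 303.4 reads, and its relative PPM1F was at 19.0 and 23.6 CPM.

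Genes of cell adhesion and matrix numbered 9. SPN, which encodes the sialomucin CD43 of white blood cells, was at 10.6 and 116.3 CPM, an 11.0-fold difference (10.1 to 12.0). MUC13, a membrane mucin of the gut lining, had 18 reads (0.328 CPM) in the DR-labelled library and 1301 reads (36.9 CPM) in the WT-labelled library, a 112-fold difference (70.8 to 190). Both are heavily glycosylated surface proteins. Of the other 13 genes with the stem MUC, 2 were at 5 CPM or more in the WT-labelled library. None of the 13 passed the 8-fold limit in either direction. Over all genes at 5 CPM or more in the higher library, 0.728% passed toward the WT-labelled library and 1.12% toward the DR-labelled library. Nothing is read from the count for MUC genes. ADAMTS1, a secreted protease that cuts proteoglycans, had 43 and 1632 reads, a 59.0-fold difference (43.6 to 81.9). CTHRC1, a secreted protein with a collagen-like repeat, was at 4.96 and 48.7 CPM, a 9.83-fold difference (8.65 to 11.2). CNTN5, a contactin of neurons, was at 4.57 and 42.5 CPM, while CNTN1 differed the other way, at 12.3 and 4.02 CPM. The remaining members were ANOS1, the matrix protein anosmin, ISM2, an isthmin, and MMP16, a membrane-anchored metalloproteinase, with 632, 318 and 257 reads in the WT-labelled library and 48, 17 and 34 in the DR-labelled library. The other membrane-type MMP genes at 5 CPM or more, MMP15 and MMP24, were within 2-fold. The summed level of the fibroblast list, whose cells make many matrix proteins, went the other way, from 14.3 CPM in the DR-labelled library to 3.15 CPM in the WT-labelled library. Of its 6 genes 4 had counts, and the sum rested on COL1A1, at 10.4 and 3.09 CPM, and PDGFRB, with 209 reads and 1 read. COL1A2 and COL3A1 had 1 read or 0 in each library, so no direction of fibroblast genes in general is read from the sum.

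The 5 transporters and channels move ions or amino acids, and most of them are best known from neurons. SLC7A2, a transporter of arginine and lysine, was at 1.55 and 52.9 CPM, a 34.1-fold difference (27.5 to 42.9), whereas SLC7A1, which carries the same amino acids, was at 154.3 and 199.2 CPM. Per length, SLC7A1 was at 63.0 TPM and SLC7A2 at 15.96 TPM in the WT-labelled library, so SLC7A1 was the higher of the pair even there. Their relative SLC7A4 differed the other way, with 262 reads in the DR-labelled library and 13 in the WT-labelled library. GRIK4, a kainate-type glutamate receptor subunit, was at 4.19 and 64.9 CPM, a 15.5-fold difference (13.5 to 17.8), and the other kainate receptor genes were under 2 CPM in both libraries.

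SCN2A, a neuronal sodium channel, had 31.8 and 403.6 reads (0.580 and 11.4 CPM), a 19.7-fold difference (13.7 to 29.1). SCN3A, its near relative and next measured gene on chromosome 2, differed the other way, with 1061 reads in the DR-labelled library and 18.7 in the WT-labelled library, 0.0274 of the level in the DR-labelled library (0.0167 to 0.0437). The libraries thus held a different gene of this pair each. SCN9A was at 35.1 and 41.5 CPM. Of 5 neuron markers, SYT1 alone reached 5 CPM, at 8.27 and 16.7 CPM, 2.01-fold higher in the WT-labelled library (1.78 to 2.28), and the others were under 1 CPM in both libraries. The summed level of the list was 9.26 and 17.4 CPM, and its part in the differences of the neuronal genes was not tested.

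Of the 8 enzymes and proteins of protein turnover, MACROD2, which removes ADP-ribose from proteins, was at 11.9 and 122.7 CPM, a 10.3-fold difference (9.50 to 11.2). MACROD1 was at 52.8 and 28.4 CPM. MPPED2, a metallophosphoesterase, was at 3.65 and 74.5 CPM, a 20.4-fold difference (17.7 to 23.7). OTUB2, a deubiquitinase, was at 7.02 and 58.2 CPM, an 8.29-fold difference (7.43 to 9.27), and OTUB1 at 89.7 and 80.3 CPM. CAND2, a cullin-associated protein best known from muscle, had 47 and 808 reads, a 26.7-fold difference (19.9 to 36.7), while the general form CAND1 was at 209.0 and 205.6 CPM. Per length, MACROD1, OTUB1 and CAND1 were at 87.1, 85.6 and 76.7 TPM in the DR-labelled library, each above its relative among the 66 genes, a direction that the choice of the 66 favours. In the WT-labelled library OTUB1 and CAND1, at 79.6 and 78.3 TPM, were above OTUB2 and CAND2, at 34.4 and 11.8 TPM, but MACROD1, at 48.7 TPM, was below MACROD2, at 57.8 TPM. DDX60L, an interferon-induced helicase gene, had 44.9 and 664.6 reads, and the sum with its near copy DDX60 differed 15.8-fold (12.4 to 20.3). PRTFDC1, a relative of the purine salvage enzyme HPRT1, had 31 and 335 reads, while HPRT1 was at 69.7 and 111.1 CPM. The others were CHST10, a sulfotransferase, and ENOX1, a surface oxidase, with 307 and 179 reads in the WT-labelled library and 48 and 15 in the DR-labelled library.

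The germline class held PASD1 and CFAP47, a protein of the sperm flagellum with 13 and 180 reads. Of a list of 30 germline genes outside the families left out, 25 had counts, 2 were at 5 CPM or more in the WT-labelled library, and 0 passed the 8-fold limit. The share over all genes at that level was 0.728%, so nothing is read from 0 of 2 genes. The median log2 difference of the list was 0.12, beside -0.05 over all genes with counts. SPA17, a sperm protein gene of the list, was at 0.826 and 5.65 CPM. In the opposite direction TEX15, a meiosis gene, was at 13.4 and 1.73 CPM and SYCP3, a gene of the synaptonemal complex, at 9.03 and 1.10 CPM. PRAME, the other gene of the list at 5 CPM or more in the WT-labelled library, was at 17.2 and 22.2 CPM.

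Among the genes of other or unknown role, NBEAL1, a large BEACH-domain protein, was at 23.2 and 203.0 CPM, an 8.73-fold difference (8.22 to 9.27). Per length it was at 3.60 and 32.6 TPM. Its relatives NBEA and NBEAL2 were at 42.1 and 85.0 CPM and at 206.8 and 168.1 CPM. KIAA1644, a membrane protein gene, had 16.8 and 709.7 reads, a 65.7-fold difference (40.3 to 112). LDOC1L, a gene derived from a retrotransposon, had 22 and 593 reads, a 41.9-fold difference (27.4 to 67.4). ARMCX5, an X-linked armadillo-repeat gene, had 23 and 563 reads, while its relatives ARMCX3 and ARMCX6 were at 55.5 and 55.5 CPM and at 25.1 and 28.8 CPM. ARMCX1, ARMCX2 and ARMCX4, under 5 CPM in both libraries, went the other way. They had 9, 266 and 27 reads in the DR-labelled library and 0, 7 and 7 in the WT-labelled library. TMEM200A, NYAP2, C15orf32 and TUSC1 had between 327 and 656 reads in the WT-labelled library and between 22 and 91.8 in the DR-labelled library.

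LOC107987373 and LOC107987397 are uncertain, since the deposited table describes each as a copy of another measured gene and both have fractional counts. LOC107987373, described as the mitochondrial ribosomal protein that MRPL23 encodes, had 4.98 reads in the DR-labelled library and 670.4 in the WT-labelled library, a ratio of 209 (88.8 to 644). MRPL23 itself was at 40.8 and 22.4 CPM. The sum of both was 40.9 CPM in the DR-labelled library and 41.4 CPM in the WT-labelled library, a ratio of 1.01 (0.946 to 1.08). The difference of the pair as a whole was thus within counting error. LOC107987397, described as like the large subunit of RNA polymerase II, was at 2.26 and 21.4 CPM. Its sum with POLR2A, the gene of that subunit, was at 409.6 and 431.4 CPM, a ratio of 1.05 (1.03 to 1.07), most of which is POLR2A.

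The relatives of the 66 genes were mostly within 2-fold, at a share below that of all genes. In 31 families named by hand after the values were seen, 88 relatives had counts and 40 were at 5 CPM or more in either library. Of these, 32 were within 2-fold, a share of 80.0% beside 88.8% of all genes at that level. ADGRL3, NR2F2, ZIC2 and NBEA were more than 2-fold higher in the WT-labelled library, and 4 others, among them EPHB4, CNTN1 and SCN3A, in the DR-labelled library. Of the 40, none was 8-fold higher in the WT-labelled library, which the choice of the 66 genes fixes. SCN3A alone of the 40 was 8-fold higher in the DR-labelled library. Relatives under 5 CPM in both libraries were not counted here. Some of these differed more than 8-fold, ARMCX2 and SLC7A4 toward the DR-labelled library among them. In 23 of the 31 families a relative was at 5 CPM or more in the DR-labelled library. Of all 18267 genes with counts, 11137 were at that level there, so nothing is read from the 23 families. By a wider rule that groups symbols by the letters before their number, the 66 genes fell into 61 stems with 1439 relatives, 881 of them at 5 CPM or more in the WT-labelled library. Of the 1439 relatives, 8 passed the 8-fold limit with the higher level in the DR-labelled library, beside 125 of all 18267 genes with counts. These shares are similar, and nothing is read from the 8 genes. More than 1 of the 66 genes was held by 3 stems, CLEC and ZNF among them.

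**Figure D4:**
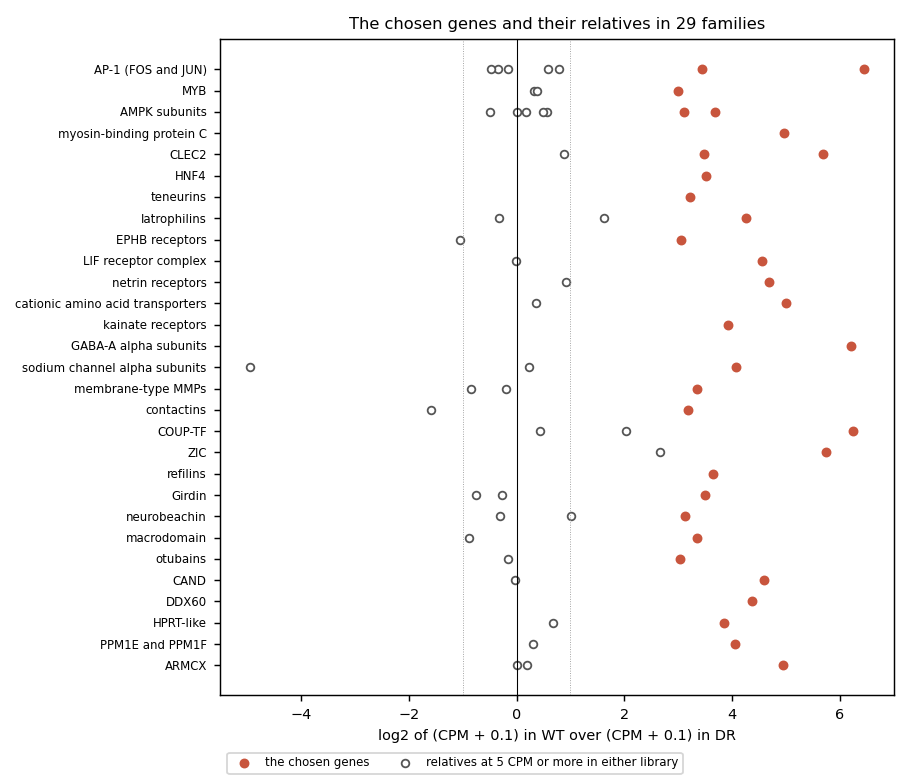
Log2 ratio of (CPM + 0.1) in the WT-labelled library over the DR-labelled library (x axis) in 29 of the families, with filled circles for genes of the 66 and open circles for relatives at 5 CPM or more in either library; dotted lines mark a 2-fold difference. Of the 38 relatives drawn, 31 lie between the dotted lines, and SCN3A lies farthest to the left.

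The 66 genes were spread over the genome. In the gene table of RefSeq, 64 of them could be placed, 63 as protein coding, and none had another of the 66 as the next annotated gene. Of all genes at 5 CPM or more in the WT-labelled library, 0.176% had a neighbour past the 8-fold limit. Counting protein-coding genes only, 2 of 63 did (3.17%, beside 0.744% of all such genes), and these were KIAA1644 and LDOC1L on chromosome 22. The X chromosome held 6 of 64 (9.38%), beside 3.45% of all genes at 5 CPM or more in the WT-labelled library. Among them, PASD1 and GABRA3 lay on either side of MAGEA4, with MAGEA3 and MAGEA2B beyond GABRA3, all 3 of them in the families left out, when only genes at 5 CPM or more in either library were counted. By that count, 4 of 64 genes (6.25%) had a neighbour past the 8-fold limit, beside 1.33% of all genes at 5 CPM or more in the WT-labelled library.

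Genes beside the 66 tended to lie on the same side of the comparison at a smaller size. Up to 2 genes on either side that were at 5 CPM or more in either library were taken, 242 in all without the 66 genes and those left out by name. Of these, 61.2% had a higher level in the WT-labelled library, beside 48.2% of all 11396 genes at that level. Their median log2 difference was 0.14, beside -0.02. A 2-fold or larger difference toward the WT-labelled library was found in 25 of them (10.3%, beside 4.26%) and toward the DR-labelled library in 11 (4.55%, beside 6.89%). One run, picked out after the values were seen, was on chromosome 10, where PRTFDC1, MKX and BAMBI lie in this order and all 4 neighbours taken for each were higher in the WT-labelled library, with median log2 differences of 0.996, 0.725 and 0.829. Those of MKX and BAMBI included the same 2 genes, MPP7 and WAC. ARHGAP21, beside PRTFDC1, was at 47.9 and 148.2 CPM, and SVIL, beside BAMBI, at 6.38 and 21.1 CPM. ZIC5 and its relative ZIC2 are also neighbours, on chromosome 13. Differences in the number of gene copies were not measured here.

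**Figure D5:**
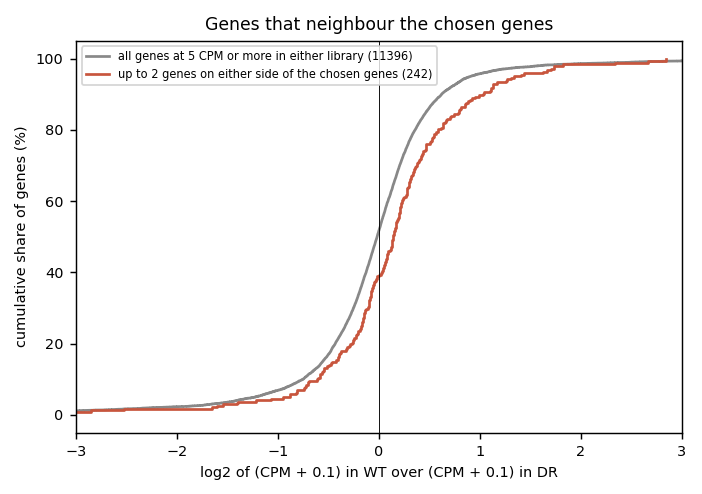
Cumulative share of genes (y axis, %) by the log2 ratio of (CPM + 0.1) in the WT-labelled library over the DR-labelled library (x axis), for 242 genes within 2 genes of one of the 66 and for all 11396 genes at 5 CPM or more in either library. The line of the neighbours lies to the right of the other over most of the axis, with medians of 0.14 and -0.02.

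In their other properties the 66 genes were lower and longer than other genes at this level. The median level in the WT-labelled library was 13.7 TPM, beside 31.6 TPM over all genes at 5 CPM or more there, and 21 of the 66 (31.8%) were in the upper 50% of those genes by TPM. The median gene length in the deposited table was 3865 bases beside 3136. A limit in CPM admits long genes at a lower level per length, and 58 genes passed when 5 TPM was used in its place, of which 55 were among the 66. In the WT-labelled library the highest after MYBPC2 were FOS at 115.6 TPM, CTHRC1 at 90.0 TPM, P2RY6 at 88.7 TPM and FOSB at 83.0 TPM, and the lowest was PRKAA2 at 1.36 TPM. In the DR-labelled library the highest was FOS at 10.2 TPM. Fractional counts in either library, which arise where reads are divided among genes, were found for 28 of the 66 (42.4%) and for 54.1% of all genes at this level.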

How the data were processed

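RNA-seq of total RNA was available as 1 library labelled DR and 1 labelled WT. Estimated counts per library, gene lengths and annotation were deposited by the authors in 1 table, which lists 18930 genes. For 663 genes no count was given. Bowtie 0.12.2 and hg19 are named in the submitters' processing notes, and the counting tool and annotation are not given in the sources used here. The authors' log2 ratio, p-value, q-value and up or down marks were not used.

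Counts were used as deposited, partly fractional (9108 genes), and divided by the column sum to give CPM. Scaling by the column sum and the gene length gave TPM. Ratios of CPM used the deposited counts, and their intervals are exact Clopper-Pearson 95% intervals of rounded counts, while intervals of a level are exact Poisson intervals. A gene with 0 reads was set at 3 reads for a lower bound. Python 3.11.15, SciPy 1.17.1, NumPy 2.4.6, pandas 2.3.3 and matplotlib 3.10.9 were used. With 1 library per group no edgeR or DESeq2 test was run, and edgeR 4.0.16 (TMM) and DESeq2 1.42.0 (size factors) in R 4.3.3 served for alternative scalings only. The code of the rule was also run on simulated counts in which chosen genes had been lowered. That run checks the code only and tells nothing about the genes described here.

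The genes and the lists were chosen with earlier results of these data known. Values were given for the 30 genes with the most CPM in the WT-labelled library, for those with another of the 66 genes in their family or beside them, for those with 0 reads, for the genes at the ratio limit and for list genes. Classes, families by hand and other genes named singly were chosen after the values were seen. Promoters, and gene order without coordinates, came from RefSeq tables of GRCh38.p14 matched by symbol or gene ID. Alternatives were the scaling, the added CPM, the level and ratio limits, the removal of fractional counts, TPM, rounding, the neighbours counted and the CpG limit. A few genes and families that entered the counts are not reported here by name.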

Additional observations from a re-analysis of the deposited data

How the results depend on the processing

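No paired analysis was possible because each group holds 1 library, and for the same reason no replicate could be left out. The number of genes, 66, changed to 38 when 1 CPM was added to the level in the DR-labelled library, to 146 at a ratio of 4, to 32 at a ratio of 16 and to 38 without genes of fractional counts. Under both other scalings, with 0.1 CPM added to both levels, at 2 or 10 CPM, at 5 TPM and with rounded counts (an alternative added after seeing the data) it lay between 50 and 82. The number in the opposite direction, 125, changed to 58 with 1 CPM added to the lower level, to 80 at 10 CPM, to 197 at 2 CPM, to 258 at a ratio of 4 and to 62 at a ratio of 16, and was 122 by TMM factors and 120 by DESeq2's size factors. The share of CpG-rich promoters was 59.6% at a limit of 0.75, where that of all genes at this level was 70.8%, a wider gap than the 76.6% against 85.2% at 0.6. TMM and DESeq2's size factors raised every ratio by 1.025 and 1.027 times, within the counting interval of all 65 genes with reads in both libraries. With 1 CPM added, 62 of the 65 ratios left their interval, and all 65 stayed above 1, from 3.36 to 57.4. Adding 1 CPM lowers ratios with a small denominator most by its construction. Genes with few reads in the DR-labelled library have the widest counting intervals. Neighbours counted among genes at 5 CPM or more in either library were added after seeing the data.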
